A study of Homo sapiens with 14 samples.

Results

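The immediate early genes described here are 10 of the 23106 gene symbols counted in each library: the FOS family (FOS, FOSB, FOSL1, FOSL2), the JUN family (JUN, JUNB, JUND), EGR1, IER2 and ZFP36. They were chosen by symbol. Polyadenylated RNA was sequenced from PC3 cells, a human prostate cancer line grown in DMEM/Ham's F12 medium, and from HCT116 cells, a human colorectal cancer line grown in McCoy's 5a medium. Each line was kept for 16 h either in normoxia (21% O2) or in hypoxia (0.5% O2), giving 4 libraries of each condition from PC3 and 3 of each from HCT116. The labels of these libraries name no genetic change, and both media held fetal bovine serum. Both are single established lines, so a difference between them is one between 2 lines, and line, medium and library batch cannot be told apart. In bulk RNA, fewer cells with a transcript and less of it per cell cannot be told apart either.

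Immediate early genes are transcribed within minutes of a stimulus such as serum, growth factors or stress, from promoters that need no newly made protein, and most of their mRNAs decay quickly. FOS and JUN proteins pair through leucine zippers to form AP-1, a transcription factor that binds TGANTCA. JUN proteins can pair with each other or with FOS proteins, whereas FOS proteins need a JUN partner. FOSL1 and FOSL2 (also called FRA1 and FRA2) lack the strong activation domain of FOS and FOSB, and FOSL1 is known for its high level in invasive carcinoma cells. EGR1 is a zinc finger transcription factor that binds GCGNGGGCG. The label of transcription factor does not cover ZFP36 (tristetraprolin), which binds AU-rich elements in mRNAs and speeds their decay, and IER2 is a small nuclear protein that is not a classical DNA-binding factor. A single time point at 16 h measures a late level of these genes and not the first wave after a stimulus.

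All 10 are protein-coding genes and all passed the filter on low counts in each comparison. On GRCh37, the build of the counts, FOS lies at chr14:75745529-75748933 (plus strand), FOSB at chr19:45971253-45978437 (plus), FOSL1 at chr11:65659520-65668044 (minus) and FOSL2 at chr2:28615315-28640184 (plus). JUN lies at chr1:59242517-59249720 (minus), JUNB at chr19:12902300-12904129 (plus) and JUND at chr19:18390504-18392432 (minus), and the representative transcript of each of these 3 has 1 exon. EGR1 lies at chr5:137801168-137804992 (plus), IER2 at chr19:13261225-13265725 (plus) and ZFP36 at chr19:39897487-39900052 (plus). The exon of JUNB overlaps an exon of HOOK2 on the other strand and IER2 overlaps exons of an antisense RNA, ENSG00000267598. The use of strand in counting is not given in the sources used here, so reads of JUNB and IER2 and of these partners cannot be told apart.

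Promoters of 9 of the 10 genes were matched in RefSeq (GRCh38.p14), whose starts were not compared with the GRCh37 positions above. The 250 bases before the RefSeq start are shown for EGR1, the gene with the widest gap between the lines. They are also shown for FOSL2, JUN and JUND, the AP-1 genes with the largest rises in hypoxic HCT116 cells. Capitals mark every match, on either strand, of TGANTCA (AP-1), TGACGTCA (the cAMP response element), the CArG box (bound by SRF), GCGNGGGCG (EGR1) and ACGTG or GCGTG (the core of the hypoxia response element).
EGR1, chr5:138465229-138465478, plus strand: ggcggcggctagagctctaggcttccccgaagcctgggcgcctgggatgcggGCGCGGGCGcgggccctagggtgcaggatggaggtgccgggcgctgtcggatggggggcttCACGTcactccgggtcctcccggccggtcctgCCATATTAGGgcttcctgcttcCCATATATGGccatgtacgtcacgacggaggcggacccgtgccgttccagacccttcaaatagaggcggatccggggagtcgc
FOSL2, chr2:28392608-28392857, plus strand: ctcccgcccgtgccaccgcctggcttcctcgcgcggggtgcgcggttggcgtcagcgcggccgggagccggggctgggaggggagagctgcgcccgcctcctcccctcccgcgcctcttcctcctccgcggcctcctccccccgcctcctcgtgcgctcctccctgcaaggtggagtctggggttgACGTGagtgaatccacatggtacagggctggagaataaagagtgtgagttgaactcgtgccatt
JUN, chr1:58784048-58784297, minus strand: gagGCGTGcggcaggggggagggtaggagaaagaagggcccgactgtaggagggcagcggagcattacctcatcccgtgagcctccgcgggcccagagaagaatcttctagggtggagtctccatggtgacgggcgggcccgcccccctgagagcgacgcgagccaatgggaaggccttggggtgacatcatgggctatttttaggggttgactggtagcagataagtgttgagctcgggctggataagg
JUND, chr19:18281623-18281872, minus strand: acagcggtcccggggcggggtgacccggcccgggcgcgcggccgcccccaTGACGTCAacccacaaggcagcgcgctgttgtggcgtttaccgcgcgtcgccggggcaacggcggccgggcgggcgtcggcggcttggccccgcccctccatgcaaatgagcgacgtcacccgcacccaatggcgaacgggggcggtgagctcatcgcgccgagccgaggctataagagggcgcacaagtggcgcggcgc
EGR1 held 2 CArG boxes, which start 105 and 83 bases before the transcription start. It was the only one of the 9 with any in these 250 bases. A CArG box was found in 1.16% of all 35116 RefSeq promoters of this length. EGR1 also held 1 match of its own motif, at 198 bases (8.41% of all promoters hold one), and 1 ACGTG, at 137 bases. JUND held TGACGTCA at 200 bases (1.65% of all promoters), FOSL2 held ACGTG at 64 bases (18.5%) and JUN held GCGTG at 247 bases (32.2%). No marked stretch overlapped another. Of the 9 promoters, 3 held ACGTG, 5 held GCGTG and 0 held TGANTCA, which 6.57% of all promoters hold. These matches are letters in a window and were not measured as bound sites. Bases further upstream were not searched, so a gene without a match here may hold one there.

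Total counts ran from 98021966 to 123935458 in normoxic and 71228454 to 96159803 in hypoxic PC3 libraries, and from 136931675 to 147934177 and 133067391 to 150630928 in the corresponding HCT116 libraries. Levels are given as CPM, counts scaled to a library size of 1e6 after TMM scaling, over all 14 libraries. The epithelial markers were present in every group (4 of 4 at 0.1 CPM or more). The prostate marker KLK3 lay under 0.1 CPM in PC3, and 4 of 5 colon markers (CDX1, CDH17, VIL1, LGR5) lay under it in HCT116, while CDX2 did not. Summed markers of leukocytes, endothelium and fibroblasts came to 8.36 to 14.2 CPM over the libraries. Of 12 known HIF targets, 12 rose in each line, with a median log2 fold change of 1.52 in PC3 and 2.70 in HCT116. Replicate 1 of PC3 stood apart in both conditions: its 2 libraries were above their group means together for FOS, FOSB, FOSL2, JUN, JUNB, JUND, EGR1 and ZFP36 and below them for FOSL1 and IER2, and PC3 results are therefore also given without them.

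**Figure D1:**
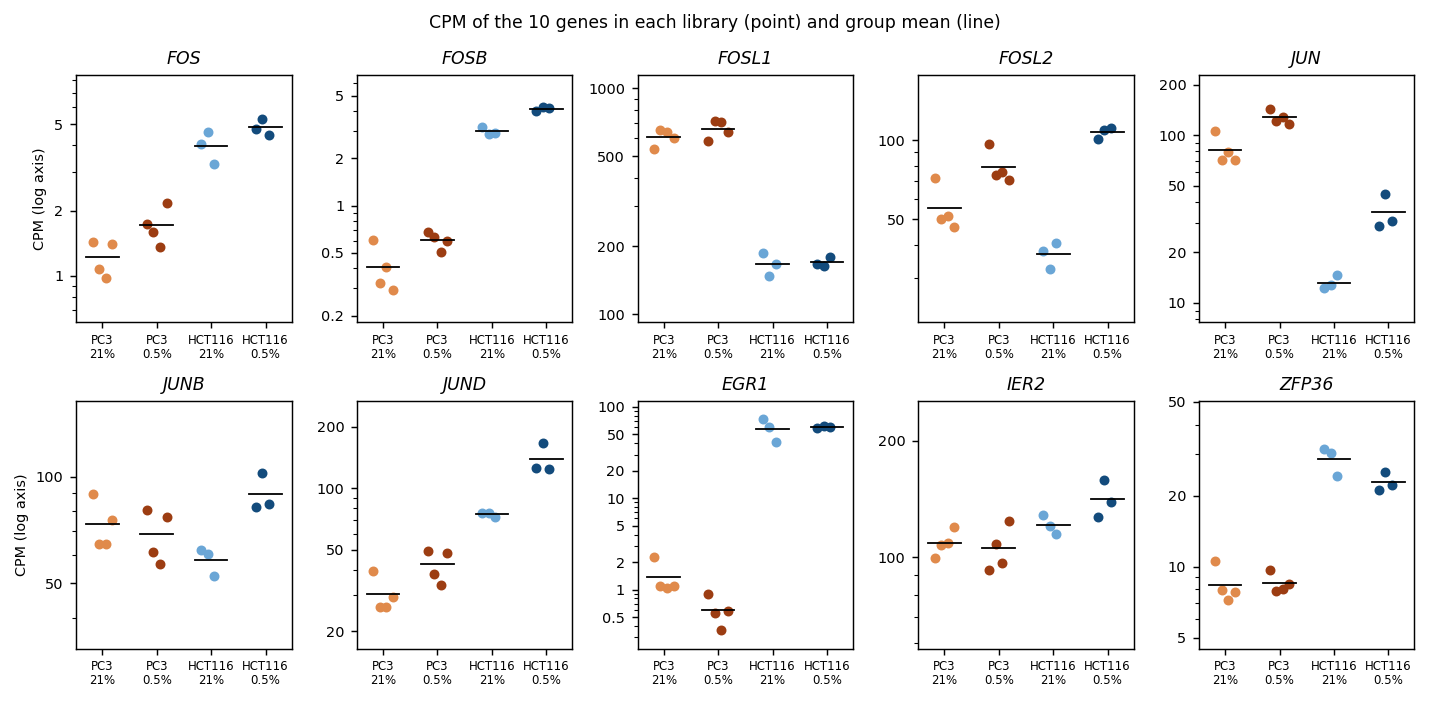
CPM of each of the 10 genes in each of the 14 libraries, with 1 panel per gene, a log y axis whose range differs between panels, points for libraries and a line for the group mean. EGR1 separates the lines most widely, and FOSL2, JUN and JUND are higher in hypoxia in each of the HCT116 libraries.

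The first question is how the 10 genes were set in each line before hypoxia. PC3 cells held more of the AP-1 genes FOSL1 and JUN, whereas HCT116 cells held more EGR1, FOSB, FOS, ZFP36 and JUND. Of the 10 genes, 4 were higher in PC3 and 5 in HCT116, while 42.4% of all 15493 genes tested were higher in PC3 and 38.9% in HCT116, so the counts by direction are near the background. Log2 fold changes here are PC3 over HCT116, with adjusted p from edgeR's quasi-likelihood test.

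In the FOS family, FOSL1 stood at 538, 656, 637 and 604 CPM in the 4 normoxic PC3 libraries and at 186, 147 and 167 CPM in the 3 of HCT116. Every PC3 library was above every HCT116 library, and the log2 fold change was 1.87 (SE 0.10, adjusted p = 1.67e-10). FOSL2 stood at 71.8, 50.1, 51.3 and 46.7 CPM in PC3 and at 38.0, 32.5 and 40.5 CPM in HCT116. This smaller gap, 0.57 (SE 0.14, adjusted p = 0.00163), went the same way without overlap. FOS and FOSB, the 2 members with strong activation domains, were scarce in both lines and went the other way. FOS stood at 1.43, 1.07, 0.979 and 1.41 CPM in PC3 and at 4.07, 4.60 and 3.27 CPM in HCT116, a log2 fold change of -1.70 (SE 0.18, adjusted p = 4.79e-07). FOSB stood at 0.604, 0.322, 0.407 and 0.290 CPM in PC3 and at 3.16, 2.87 and 2.90 CPM in HCT116, a log2 fold change of -2.87 (SE 0.21, adjusted p = 3.79e-09). Neither FOS nor FOSB overlapped between the lines.

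In the JUN family, JUN stood at 105, 71.4, 79.1 and 71.2 CPM in PC3 and at 12.3, 12.8 and 14.6 CPM in HCT116. JUN was 6.17-fold higher in PC3 (log2 fold change 2.63, SE 0.17, adjusted p = 1.14e-09). JUND, the family member that is usually made steadily rather than on demand, went the other way: it stood at 39.2, 26.3, 26.4 and 29.5 CPM in PC3 and at 75.7, 76.0 and 72.0 CPM in HCT116. Its log2 fold change was -1.30 (SE 0.16, adjusted p = 1.56e-06). JUNB was the closest of the 3, at 89.1, 64.7, 64.6 and 75.4 CPM in PC3 and 62.2, 60.5 and 52.3 CPM in HCT116. Its log2 fold change of 0.33 (SE 0.14, adjusted p = 0.0393) fell short of the threshold in 7 of the 14 fits that each left out 1 library (adjusted p up to 0.153, without HCT116 normoxia replicate 3). It also fell short without both PC3 libraries of replicate 1 (0.23, adjusted p = 0.0905).

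EGR1 showed the widest gap of the 10 genes. It stood at 2.29, 1.10, 1.04 and 1.09 CPM in normoxic PC3 libraries and at 72.6, 59.9 and 40.7 CPM in normoxic HCT116 libraries, 41.9-fold higher in HCT116 (log2 fold change -5.39, SE 0.28, adjusted p = 8.83e-11). This is the gene that held the 2 CArG boxes in the 250 bases searched, and whether they bear on the gap was not tested. ZFP36 stood at 10.6, 7.95, 7.18 and 7.79 CPM in PC3 and at 31.6, 30.3 and 24.3 CPM in HCT116, a log2 fold change of -1.78 (SE 0.13, adjusted p = 4.85e-09). IER2 was the only one of the 10 not called: it ranged from 99.4 to 120 CPM in PC3 and from 115 to 129 CPM in HCT116, and its log2 fold change of -0.16 has an interval of 2 standard errors from -0.36 to 0.05 (adjusted p = 0.175).

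Levels of different genes are compared per kb of the representative transcript. FOSL1 was the most abundant of the 10 in all 4 groups, at 358 ± 30.6 (SD, n = 4) CPM per kb in normoxic and 389 ± 36.5 in hypoxic PC3, and at 97.9 ± 11.2 (SD, n = 3) and 100.1 ± 4.78 in HCT116. IER2 came next in 3 of the groups, among them both normoxic ones (51.6 and 57.5 CPM per kb). In normoxic PC3 the order went on with JUNB, JUN, JUND, FOSL2, ZFP36, FOS, EGR1 and FOSB, and the ranges of IER2 and JUNB overlapped, as did those of FOS and EGR1. In normoxic HCT116 it went on with JUND, JUNB, EGR1, ZFP36, FOSL2, JUN, FOS and FOSB, where only EGR1 and ZFP36 overlapped. JUN was thus the fourth of the 10 in normoxic PC3 and the eighth in normoxic HCT116, and EGR1 the ninth and the fifth.

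**Figure D2:**
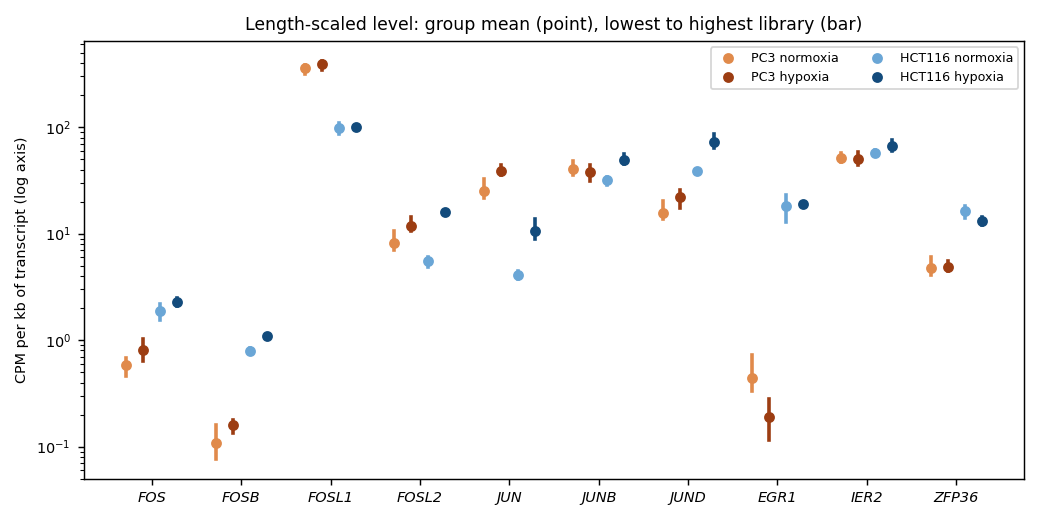
CPM per kb of the representative transcript on a log axis for the 10 genes in 4 groups, with the group mean as a point and the lowest to highest library as a bar. FOSL1 is the highest in every group, and FOSB has the lowest mean in every group, with a range that overlaps that of EGR1 in hypoxic PC3.

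Expressed as shares of the family per kb, FOSL1 made up 97.5% ± 0.710 (SD, n = 4) of the FOS family in normoxic PC3 and 92.2% ± 0.547 (SD, n = 3) in normoxic HCT116. The JUN family was more evenly made up. In normoxic PC3 it was 49.7% JUNB, 31.0% JUN and 19.4% JUND, and in normoxic HCT116 it was 42.7% JUNB, 5.48% JUN and 51.9% JUND. JUN was above JUND in PC3 and below it in HCT116. These are shares of mRNA, and protein or dimers were not measured.

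The second question is what 16 h of hypoxia did in PC3. In the fit of the 8 PC3 libraries with TMM scaling and no block, JUN rose and no other of the 10 genes passed the test, while other fits called up to 5. In all, 6.03% of the 14309 genes tested rose and 5.29% fell, so 1 of 10 is near the background. With total counts alone in place of TMM, 562 genes rose and 1733 fell in PC3 and the median gene moved to -0.10 (log2), and with upper-quartile scaling 681 rose and 1048 fell, in place of 863 and 757. JUN was called under both. JUN went from 105, 71.4, 79.1 and 71.2 CPM to 143, 122, 128 and 116 CPM. The 4 hypoxic libraries all lay above the 4 normoxic ones, and the log2 fold change was 0.64 (SE 0.14, adjusted p = 0.0192). JUN was not called without normoxic replicate 2 (adjusted p = 0.0679), 3 (0.0698) or 4 (0.0567).

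The replicate numbers pair the PC3 libraries, and with the number as a block 5 of the 10 genes were called in place of 1 (4 rose, with 14.9% of all genes, and 1 fell, with 13.6%), while the count over all genes went from 1620 to 4074. FOSL2, an AP-1 subunit, stood at 71.8, 50.1, 51.3 and 46.7 CPM in normoxia and 96.8, 73.4, 75.8 and 70.8 CPM in hypoxia. Its groups overlapped because normoxic replicate 1 lay above hypoxic replicate 4, and within the pairs it was higher in hypoxia in 4 of 4. Its log2 fold change was 0.53 (SE 0.16, adjusted p = 0.0600), and 0.54 with the block (adjusted p = 0.000798). JUND stood at 39.2, 26.3, 26.4 and 29.5 CPM in normoxia and 49.5, 38.3, 33.6 and 48.4 CPM in hypoxia. Its groups overlapped too, it was higher in 4 of 4 pairs, and its log2 fold change was 0.49 (SE 0.17, adjusted p = 0.0941; with the block 0.49, adjusted p = 0.00451). FOS was higher in 4 of 4 pairs as well, at 1.73, 1.59, 1.35 and 2.17 CPM in hypoxia, with a log2 fold change of 0.49 (SE 0.20, adjusted p = 0.155; with the block 0.49, adjusted p = 0.0335). The share of all genes with the same sign in 4 of 4 pairs was not counted, so the pair signs here and below are descriptions. Without both libraries of replicate 1, a choice made after seeing the data, JUN, FOSL2, JUND and EGR1 were called (7.04% of all genes rose and 5.42% fell).

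EGR1 had the largest difference of the 10 in PC3, and its values were lower in hypoxia. It stood at 2.29, 1.10, 1.04 and 1.09 CPM in normoxia and at 0.887, 0.556, 0.362 and 0.581 CPM in hypoxia. The groups did not overlap, and the pairs differed by -1.52 to -0.90 on the log2 scale. The log2 fold change was -1.20 (SE 0.35, adjusted p = 0.0576), and it was -1.19 with the block (adjusted p = 0.00388) and -1.11 without replicate 1 (adjusted p = 0.0215). Scaling to total counts alone and to upper quartiles also brought EGR1 under the threshold (adjusted p = 0.0352 and 0.0483). Of the 8 fits that each left out 1 PC3 library, only 1 called EGR1 (adjusted p up to 0.139, without hypoxic replicate 2). Its log2 fold change ranged from -1.48 to -0.83 over these fits. The hypoxic PC3 libraries held the lowest EGR1 level of the 4 groups.

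For the other members in PC3 the interval of 2 standard errors holds 0 or nearly so. FOSL1, at 584, 718, 705 and 641 CPM in hypoxia, had a log2 fold change of 0.13 with an interval from -0.05 to 0.30, although it was higher in hypoxia in 4 of 4 pairs by 0.09 to 0.15. FOSB, at 0.506 to 0.679 CPM in hypoxia, had a log2 fold change of 0.58 (SE 0.27, adjusted p = 0.202) and was higher in 4 of 4 pairs. JUNB (-0.09, interval -0.38 to 0.21), IER2 (-0.04, interval -0.23 to 0.15) and ZFP36 (0.03, interval -0.25 to 0.31) had mixed signs between pairs. Changes of the size seen for FOSL2 in HCT116 lie outside these intervals.

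The third question is what the same hypoxia did in HCT116. FOSL2, JUN, JUND, JUNB and FOSB rose and ZFP36 fell. Among all 14120 genes tested 14.6% rose and 11.3% fell, so the 5 rises among 10 genes stand against 14.6%. With total counts alone 1286 genes (9.11%) rose and 3146 (22.3%) fell, in place of 2061 and 1597, and the same 6 members were called. The 5 that rose are all AP-1 subunits, and all 3 JUN genes were among them. For each of these 5 the hypoxic and normoxic libraries did not overlap, and each was called in all 6 fits that left out 1 library. The share of all genes without overlap was not counted, so the lack of overlap is a description.

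FOSL2 had the largest rise of the 10 genes. It went from 38.0, 32.5 and 40.5 CPM in normoxia to 101.2, 109 and 111 CPM in hypoxia, a 2.93-fold rise (log2 fold change 1.55, SE 0.08, adjusted p = 2.70e-07). JUN went from 12.3, 12.8 and 14.6 CPM to 28.8, 44.6 and 30.6 CPM, a 2.65-fold rise (1.41, SE 0.15, adjusted p = 6.69e-05). Hypoxic replicate 2 was the highest of its group for JUN, and also for JUND and JUNB. JUND went from 75.7, 76.0 and 72.0 CPM to 126, 167 and 124 CPM, a log2 fold change of 0.92 (SE 0.10, adjusted p = 0.000130). JUNB went from 62.2, 60.5 and 52.3 CPM to 82.1, 102 and 83.5 CPM, a log2 fold change of 0.63 (SE 0.09, adjusted p = 0.000846). FOSB, at a far lower level, went from 3.16, 2.87 and 2.90 CPM to 4.00, 4.27 and 4.17 CPM. Its log2 fold change was 0.50 (SE 0.11, adjusted p = 0.00638), which was not called in 1 fit over all 14 libraries (adjusted p = 0.148).

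ZFP36, the mRNA decay factor, went from 31.6, 30.3 and 24.3 CPM to 21.0, 25.3 and 22.3 CPM. The groups overlapped, since normoxic replicate 3 lay below hypoxic replicate 2, and the log2 fold change was -0.31 (SE 0.10, adjusted p = 0.0385). The call was lost without normoxic replicate 1 (adjusted p = 0.110) or 2 (0.0920), without hypoxic replicate 1 (0.126) or 3 (0.124), and in 1 fit over all 14 libraries (0.142). The 4 remaining genes were not called. FOS, at 4.77, 5.29 and 4.45 CPM in hypoxia, had a log2 fold change of 0.30 (interval 0.03 to 0.57, adjusted p = 0.122), and IER2, at 127, 159 and 139 CPM, had 0.24 (interval 0.07 to 0.40, adjusted p = 0.0537). FOSL1, at 167, 164 and 180 CPM, had 0.05 (interval -0.12 to 0.21). EGR1 had 0.08 (interval -0.23 to 0.38), and its hypoxic libraries, at 58.6, 62.0 and 59.9 CPM, lay within the range of the normoxic ones.

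**Figure D3:**
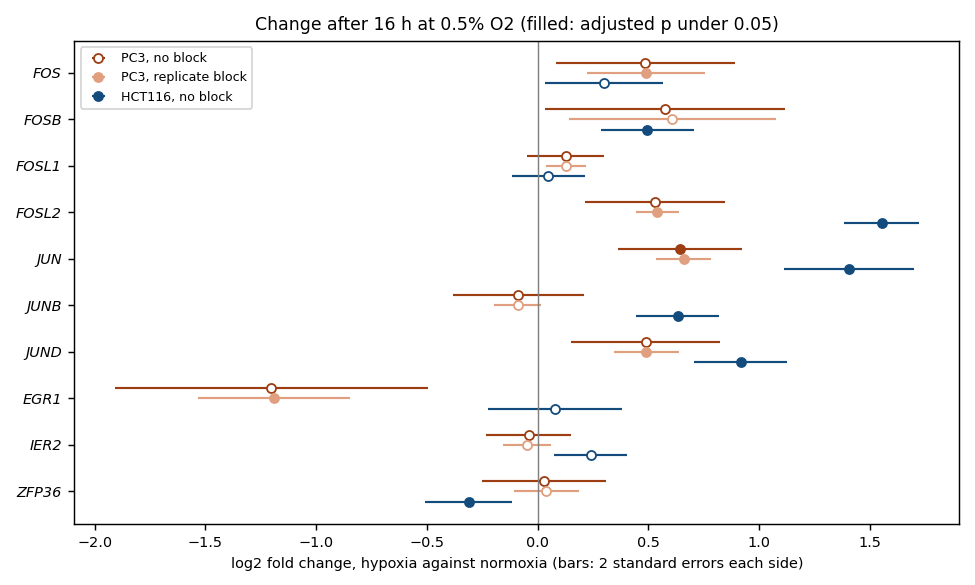
Log2 fold change of the 10 genes in hypoxia against normoxia in PC3 without and with the replicate block and in HCT116, with bars of 2 standard errors each side and filled points where the adjusted p is under 0.05. FOSL2 and JUN lie furthest to the right in HCT116 (1.55 and 1.41), and EGR1 furthest to the left in PC3 (-1.20).

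In HCT116 hypoxia the make-up of the families moved with these rises. FOSL2 went from 5.20% ± 0.434 to 13.4% ± 0.562 (SD, n = 3) of the FOS family per kb and FOSL1 from 92.2% to 83.8%, while the CPM of FOSL1 differed by less than its spread. In the JUN family of HCT116, JUN went from 5.48% ± 0.795 to 8.03% ± 0.686 (SD, n = 3), JUNB from 42.7% to 37.3% and JUND from 51.9% to 54.7%. In PC3, JUN went from 31.0% ± 2.23 to 39.9% ± 4.27 (SD, n = 4) and JUNB from 49.7% to 38.0%. FOSL1 still made up 96.8% ± 0.730 (SD, n = 4) of the FOS family in hypoxic PC3. A share falls when another member rises, so these are descriptions with no test.

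The fourth question is whether the lines differed in their response, tested as the interaction of line and oxygen over all 14 libraries. FOSL2 did: its change in PC3 was 1.01 lower on the log2 scale than that in HCT116 (log2 difference -1.01, SE 0.20, adjusted p = 0.0141), a ratio of the fold changes of 2.01. Among 15493 genes, 1.31% (203) had a more upward response in HCT116 and 1.01% (156) in PC3, and with upper-quartile scaling these counts were 278 and 115. Of the 12 known HIF targets, 7 were called, all more upward in HCT116, and the median log2 difference of the 12 was -1.09. The call of FOSL2 was lost without HCT116 normoxic replicate 2 (adjusted p = 0.0512), hypoxic replicate 2 (0.0580) or hypoxic replicate 3 (0.0519). JUN (-0.75, SE 0.22, adjusted p = 0.0977), JUNB (-0.71, SE 0.20, adjusted p = 0.0792) and EGR1 (-1.27, SE 0.40, adjusted p = 0.125) were not called.

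With the replicate number within line as a block, 4 of the 10 genes were called in place of 1, and over all genes 1307 in place of 359 (4.58% more upward in HCT116 and 3.85% in PC3). These were FOSL2, JUNB (adjusted p = 0.00157), EGR1 (0.00631) and JUN (0.0154). The numbers were taken as pairs only in PC3, and a block in PC3 alone, chosen after seeing the data, called the same 4 (FOSL2 at -1.001 with adjusted p = 5.32e-05, JUNB 0.00270, EGR1 0.0106, JUN 0.0201), with 4.40% and 3.80% of all genes. Without both PC3 libraries of replicate 1, FOSL2, JUNB (adjusted p = 0.0415) and EGR1 (0.0482) were called, with 1.78% of all genes more upward in HCT116 and 1.50% in PC3. In each of the 4 the change was more upward in HCT116. For JUND the difference was -0.42 (interval -0.86 to 0.03), and for ZFP36 it was 0.35 (interval -0.02 to 0.73). For FOS, FOSB, FOSL1 and IER2 the difference lay between -0.27 and 0.20, with intervals that hold 0.

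The members were then set beside other genes of the same class and pathway. In HCT116, 21 of 35 other immediate early genes rose and 0 fell by edgeR (14.6% and 11.3% of all genes), with 0 that fell at an unadjusted p under 0.05 and 0 by DESeq2, and their median log2 fold change was 0.42 against 0.0018 over all genes tested. The count of 0 that fell became 2 with total counts alone (22.3% of all genes) and 1 with the replicate number as a block (11.7%, with 14.9% that rose), and the 21 that rose became 10 in 1 fit over all 14 libraries (6.05%, with 5.13% that fell). BTG1, an antiproliferative factor, went from 20.8 ± 1.43 to 42.9 ± 5.91 CPM (SD, n = 3; log2 fold change 1.06, SE 0.10). KLF2, a Kruppel-like transcription factor, rose by 0.97 (SE 0.14), RHOB, a small GTPase, by 0.86 (SE 0.12), and MAFF, a small leucine zipper protein, by 0.83 (SE 0.08).

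In PC3, 4 of 33 tested rose and 1 fell (6.03% and 5.29% of all genes), with a median of 0.05, and EGR3 and EGR4 were not tested there. With the replicate block 11 rose and 2 fell (14.9% and 13.6% of all genes), and without replicate 1 7 rose and 1 fell (7.04% and 5.42%). CSRNP1, a nuclear protein, rose by 1.07 (SE 0.16, adjusted p = 0.00374) and KLF4, a zinc finger factor, went from 21.7 ± 1.28 to 39.1 ± 2.73 CPM (SD, n = 4; log2 fold change 0.85, SE 0.08, adjusted p = 0.000314). BTG1 rose by 0.45 (SE 0.11, adjusted p = 0.0296), and PLK3, a stress kinase, fell by 0.54 on the log2 scale (SE 0.11, adjusted p = 0.0137). The interaction test called 3 of the 35, all more upward in HCT116: RHOB (-1.001, SE 0.24, adjusted p = 0.0398), KLF10 (-0.67, SE 0.10, adjusted p = 0.00175) and PLK3 (-0.54, SE 0.13, adjusted p = 0.0410).

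**Figure D4:**
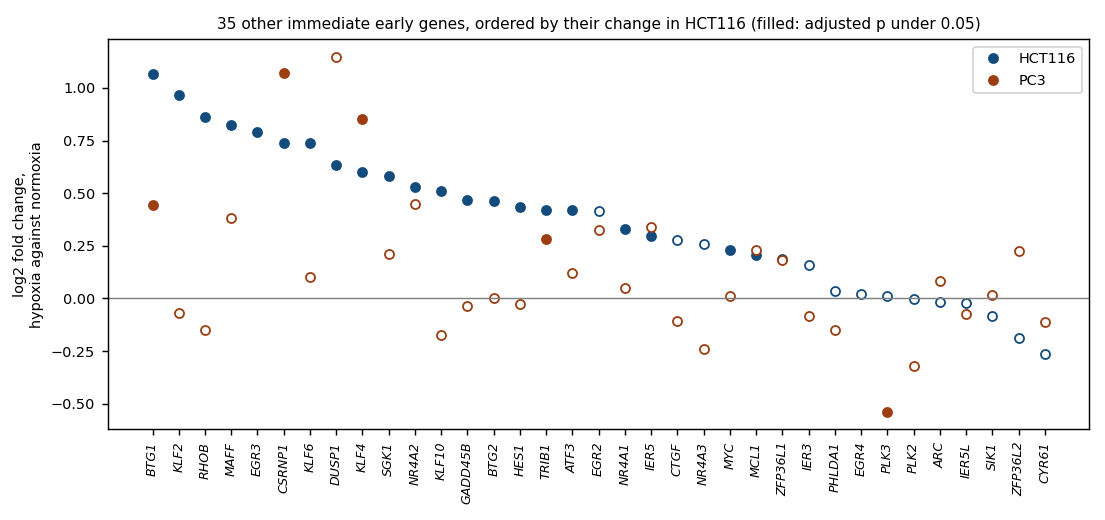
Log2 fold change in hypoxia of 35 other immediate early genes in HCT116 and 33 of them in PC3, ordered along the x axis by the change in HCT116, with filled points where the adjusted p is under 0.05. The HCT116 values run from -0.26 to 1.06 and those of PC3 from -0.54 to 1.15.

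In normoxia, 13 of these 35 genes were higher in PC3 and 13 in HCT116 (42.4% and 38.9% of all genes). IER3, an early response regulator of survival, stood at 53.5 ± 1.72 CPM (SD, n = 4) in PC3 and 0.430 ± 0.0459 CPM (SD, n = 3) in HCT116 (log2 fold change 6.95, SE 0.17). CYR61, a matricellular protein, was also higher in PC3 (3.65, SE 0.36), while KLF2 (-3.95, SE 0.24) and IER5L (-3.86, SE 0.12) were higher in HCT116. EGR1 and IER3, both in this class, thus differed between the lines in opposite directions.

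Upstream of the members are the kinases of the ERK, JNK and p38 pathways and the factors SRF, ELK and CREB1, which drive immediate early promoters. Of 19 such genes, 1 rose in hypoxic PC3 (6.03% of all genes), and 2 rose and 1 fell in hypoxic HCT116 (14.6% and 11.3%), so these counts are near or under the background. MAP2K1 (MEK1), the kinase that activates ERK, was called in both lines: it went from 89.8 ± 4.41 to 139 ± 8.39 CPM in PC3 (SD, n = 4; log2 fold change 0.64, SE 0.07, adjusted p = 0.000853) and from 77.5 ± 2.19 to 106 ± 2.84 CPM in HCT116 (SD, n = 3; 0.47, SE 0.06, adjusted p = 0.000312). In HCT116 MAPK3 (ERK1) rose by 0.25 (SE 0.06) and MAPK9 (JNK2) fell by 0.34 on the log2 scale (SE 0.06). The response of MAPK9 differed between the lines by 0.37 (SE 0.08, adjusted p = 0.0262), the only one of the 19 called. In normoxia, where 42.4% and 38.9% of all genes were higher in PC3 and HCT116, 9 of the 19 were higher in PC3, with RPS6KA2 (1.59, SE 0.17) and RPS6KA3 (0.88, SE 0.06) the furthest, and 7 were higher in HCT116, with RPS6KA5 (-1.37, SE 0.07) and MAPK8 (-1.35, SE 0.08) the furthest.

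Among 12 dimer partners of AP-1 and corepressors of EGR1, 10 were tested in HCT116, where 3 rose (14.6% of all genes), and 9 in PC3, where 1 rose (6.03%). NAB2, a corepressor of EGR1, rose in both, from 12.1 ± 0.769 to 17.0 ± 1.10 CPM in PC3 (SD, n = 4; log2 fold change 0.50, SE 0.08, adjusted p = 0.00457) and from 53.8 ± 3.32 to 73.9 ± 1.04 CPM in HCT116 (SD, n = 3; 0.48, SE 0.06, adjusted p = 0.000429). NFE2L1 (0.42, SE 0.07) and NAB1 (0.30, SE 0.06) also rose in HCT116. Between the lines in normoxia 3 were higher in PC3 and 4 in HCT116 (42.4% and 38.9% of all genes). NAB2 was higher in HCT116 (-2.16, SE 0.07), as EGR1 was, and so was BATF3 (-2.56, SE 0.19), while BATF2 (1.75, SE 0.53) and ATF7 (0.75, SE 0.07) were higher in PC3. The interaction called 0 of 10 by edgeR, 0 at an unadjusted p under 0.05 and 0 by DESeq2.

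Among 20 known target genes of AP-1 and EGR1, 4 rose and 2 fell in hypoxic PC3. IL11, a cytokine, went from 2.37 ± 0.539 to 6.39 ± 1.17 CPM (SD, n = 4; log2 fold change 1.43, SE 0.19, adjusted p = 0.00272). TGFB1 (0.69, SE 0.10) and SPHK1 (0.66, SE 0.09) rose, and AREG, an EGF receptor ligand, fell by 0.92 on the log2 scale (SE 0.15). In hypoxic HCT116, 4 of 17 tested rose and 1 fell. PLAUR, the urokinase receptor, rose by 0.78 (SE 0.10) and HBEGF by 0.34 (SE 0.09), and F3, tissue factor, fell by 0.40 on the log2 scale (SE 0.13). Of all genes tested 6.03% rose and 5.29% fell in PC3, and 14.6% and 11.3% in HCT116. The interaction was called for PLAUR (-0.64, SE 0.15, adjusted p = 0.0378) and TGFB1 (0.54, SE 0.13, adjusted p = 0.0458).

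In normoxia all 20 targets differed between the lines, 16 higher in PC3 and 4 in HCT116 (42.4% and 38.9% of all genes). VIM, the mesenchymal filament vimentin, stood at 549 ± 63.0 CPM (SD, n = 4) in PC3 with a log2 fold change of 6.34 (SE 0.23). The collagenase MMP1 stood at 13.96 ± 4.27 CPM in PC3 (SD, n = 4), against 8 to 13 counts in each HCT116 library, and the collagenase MMP13 at 7.87 ± 7.39 CPM (SD, n = 4) against 0 to 3 counts. Replicate 1 was the highest PC3 library for both, and without it the means were 12.6 CPM for MMP1 and 4.18 CPM for MMP13. MMP10, a stromelysin, had 0 counts in the normoxic HCT116 libraries and 3.34 ± 1.91 CPM (SD, n = 4) in PC3, at least 157-fold higher against a floor of 3 counts per library (2.40 CPM and at least 113-fold without PC3 replicate 1). Of the AP-1 members, FOSL1, JUN, FOSL2 and JUNB were higher in PC3 and FOS, FOSB and JUND in HCT116, as was EGR1.

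Of 14 mRNAs known to be bound by ZFP36, 13 were tested between the lines and all 13 were higher in normoxic PC3 (42.4% of all genes), where ZFP36 itself was lower. Whether ZFP36 bears on their level was not tested, and line, medium and library batch cannot be told apart. IL6 had 0 counts in the normoxic HCT116 libraries and 23.4 ± 13.9 CPM (SD, n = 4) in PC3, at least 1103-fold higher against 3 counts per library (16.5 CPM and at least 778-fold without PC3 replicate 1). IL8 stood at 1421 ± 764 CPM in PC3 (SD, n = 4; 1050 CPM without replicate 1) and 62 to 114 counts per HCT116 library, CXCL1 at 89.7 ± 3.16 CPM (SD, n = 4) against 21 to 40 counts, and CSF2 at 5.11 ± 0.664 CPM (SD, n = 4) against 0 to 4 counts. Most of the list are cytokines, and LIF is also on the list of AP-1 targets. In hypoxia, 1 of 13 rose and 1 fell in PC3 (6.03% and 5.29% of all genes), where CXCL1 fell by 0.80 on the log2 scale (SE 0.15, adjusted p = 0.00979), and 3 of 9 tested rose in HCT116 (14.6%). The 3 were VEGFA (1.10, SE 0.08), which is also on the list of HIF targets and rose in PC3 too (0.65, SE 0.14), PTGS2 (0.76, SE 0.20) and PIM1 (0.33, SE 0.08). The interaction called 0 of 13 by edgeR and 0 by DESeq2, with 4 at an unadjusted p under 0.05.

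Within groups, some members varied from library to library together and others in opposite directions. After taking the 4 group means from log2(CPM + 1), 28 pairs among the 8 members with at least 1 CPM in both lines had a median correlation of 0.36 over the 14 libraries, with 18 pairs above 0, 10 at or below it and 6 above 0.7. Without the PC3 libraries of replicate 1 the median was 0.24. Over all pairs of 11199 genes the median was 0.0058 and 6.87% exceeded 0.7. JUNB and JUND were the closest pair, at 0.96, and at 0.94 without the PC3 libraries of replicate 1, followed by JUNB and ZFP36 at 0.84 (0.73 without them) and FOS and JUNB at 0.82 (0.89). FOSL2 and JUN, at 0.73, came to 0.50 without replicate 1. Leaving out these PC3 libraries took IER2 from 0.236 to 0.815 with JUNB, from 0.194 to 0.781 with JUND and from 0.496 to 0.726 with FOS. It took FOSL2 and JUNB from 0.474 to -0.126, and FOSL1 and FOSL2 from -0.41 to 0.332. FOSL1 correlated negatively with 6 of the 7 others, down to -0.73 with JUND (-0.54 without replicate 1), and FOSL2 and IER2 stood at -0.53 (-0.25). The libraries differed in depth and no test was run on these correlations, so they are descriptions.

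**Figure D5:**
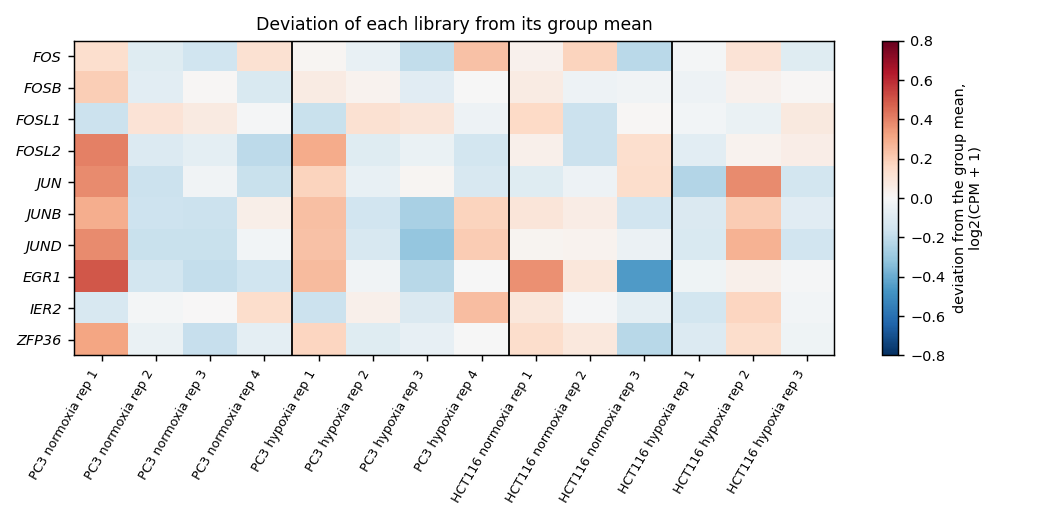
Deviation of each library from its group mean on log2(CPM + 1), with the 10 genes as rows, the 14 libraries as columns and lines between the 4 groups. PC3 replicate 1 is above the mean for FOSL2, JUN, JUNB, JUND and EGR1 in both conditions and below it for FOSL1, and HCT116 hypoxia replicate 2 is above it for JUN, JUNB and JUND.

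Among all 11199 genes, those whose deviations were most like a member's were, with Pearson correlations over 14 libraries, as follows. FOS was most like IDS (0.95) and ACSL3 (0.94), FOSL1 like TARBP1 (0.95) and LMNB2 (0.93), and FOSL2 like CLCF1 (0.96) and TMCC1 (0.96). JUN was most like RHOB (0.96) and INSIG2 (0.95), JUNB like WBP2 (0.97) and JUND (0.96), and JUND like MAGED2 (0.98) and DCTN2 (0.97). IER2 was most like CDC42EP2 (0.95) and NUCB1 (0.95), and ZFP36 like MCL1 (0.96) and RNF19B (0.93). RHOB and MCL1 are also on the list of other immediate early genes. With 14 libraries and this many genes, values of this size are the top of a long list.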

How the data were processed

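Polyadenylated RNA was sequenced in 14 libraries. The authors aligned reads with HISAT2 (version 2.05), first to the ERCC spike-ins and then to GRCh37, and counted those within RefSeq genes with HTSeq (0.5.4p3, intersection-strict). They deposited unnormalised counts of 23106 gene symbols per library. The RefSeq release and the use of strand are not given in the sources used here, and ERCC reads and HIF-1β knock-out libraries were not analysed here.

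Counts were tested with edgeR (4.0.16, R 4.3.3): filterByExpr, TMM, two-sided quasi-likelihood test, Benjamini-Hochberg adjustment over all genes tested, threshold 0.05. Each line was fitted alone for hypoxia. The line contrast and the interaction came from 4 group means over 14 libraries. SEs were obtained from the unshrunk log2 fold change and the F statistic (its ratio to the root of F). Positions and representative transcripts came from GENCODE v44 lifted to GRCh37, and promoters from RefSeq.

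The members, gene lists and alternatives were chosen with earlier results of these data known. Genes of other lists are named where they are past the threshold, at least 1 CPM in one condition and among the 4 largest log2 fold changes of their list. The 2 genes most like each member were named by correlation. Some genes that the rule names are not reported here. The study describes the libraries of a condition as biological replicates. No pair of replicates lay within counting error (chi-square of 12.6 to 269 per degree of freedom).

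Deviations from the condition means of same-numbered PC3 libraries had correlations of 0.820, 0.548, 0.372 and 0.362 over 11199 genes. Each normoxic library was closest to the hypoxic one with its own number. The PC3 numbers were therefore taken as pairs, from the data and not from the labels.

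Alternatives were other scalings, DESeq2 (1.42.0), other filters, 1 fit over all 14 libraries, only the 7 normoxic libraries, the replicate number as a block and each library left out. Leaving out PC3 replicate 1 and a block in PC3 only were added after seeing the data. The tests were checked on simulated data with a fixed spread and independent libraries. That check therefore does not cover the PC3 pairs or the distance of PC3 replicate 1.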

Additional observations from a re-analysis of the deposited data

Results flagged for a closer look

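EGR1 in normoxic PC3 replicate 1 stood at 2.29 CPM, far from the other 3 libraries of its group, which lay between 1.04 and 1.10 CPM. Of 20 groups of 4 libraries looked at (the 10 genes in both PC3 conditions), this was the 1 flagged, and chance flags about 1 in 20. Without both libraries of replicate 1 the log2 fold change of EGR1 in hypoxic PC3 was -1.11 (adjusted p = 0.0215). With 1 PC3 library left out at a time, EGR1 was called in 1 of 8 fits.

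The hypoxia response of FOSL2 differed between the lines by a test of the difference itself, the interaction of line and oxygen (log2 difference, PC3 minus HCT116, -1.01, edgeR, adjusted p = 0.0141). FOSL2 was higher in hypoxia in 4 of 4 PC3 pairs, and every hypoxic HCT116 library was above every normoxic one. These signs describe a rise in each line and not the difference between them. The difference was called in 11 of the 14 fits that each left out 1 library (adjusted p up to 0.058, without HCT116 hypoxia replicate 2).

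By the same test, 6 genes of the other lists that the report names also differed between the lines: RHOB (-1.001), KLF10 (-0.67), PLK3 (-0.54), PLAUR (-0.64), TGFB1 (0.54) and MAPK9 (0.37), as log2 differences, PC3 minus HCT116.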

How the results depend on the processing

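In PC3 the number of members called (1) was 2 with upper-quartile scaling and with total counts alone, 4 with DESeq2, in 1 fit over all 14 libraries and without replicate 1, and 5 with the replicate block. The genes called (1620) were 2601 with DESeq2, 2465 in 1 fit and 4074 with the block. Of the other immediate early genes, 7 rose with DESeq2, in 1 fit and without replicate 1 (4 before), 11 with the block, and 3 fell with total counts and 2 with the block (1 before). In HCT116, 1 fit called 1733 genes (2061 and 1597 before) and 10 other immediate early genes that rose (21 before), and 2 fell with total counts and 1 with the block (0 before). The interaction called 974 genes and 3 members with DESeq2, 1307 and 4 with the block, 1270 and 4 with the block in PC3 only, and 3 members without PC3 replicate 1 (359 genes and 1 member before). With 1 library left out at a time, genes called ranged from 553 to 2085 in PC3, 2560 to 3339 in HCT116, 12152 to 12924 between the lines and 177 to 717 in the interaction, and members called from 0 to 3, 5 to 6, 8 to 9 and 0 to 2. Other immediate early genes that rose ranged from 2 to 6 in PC3 and 16 to 20 in HCT116, and those that fell from 0 to 2 and 0 to 1.

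Signs that changed were all of genes not called. In PC3 ZFP36 went to -0.016 with upper-quartile scaling and -0.075 with total counts, and in HCT116 FOSL1 to -0.043 and EGR1 to -0.021 with total counts. Without single libraries the log2 values ranged from -0.18 to 0.028 for JUNB, -0.12 to 0.011 for IER2 and -0.047 to 0.17 for ZFP36 in PC3, from -0.045 to 0.12 for FOSL1 and -0.13 to 0.26 for EGR1 in HCT116, and from -0.037 to 0.35 for FOSB in the interaction. The cause of these changes was not tested. The HCT116 numbers were not taken as pairs (correlations 0.0371, 0.437 and -0.10). Of the normoxic HCT116 libraries, only replicate 2 was closest to the hypoxic one with its own number. In HCT116 the block brought FOS under the threshold (0.31, adjusted p = 0.0436) and changed no other member's call. IER2 was called in HCT116 with DESeq2 (adjusted p = 0.0388) and without the filter on low counts (0.0401), and between the lines in the 7 normoxic libraries alone (0.0357). FOS, FOSB and EGR1 in PC3 stood near or under 1 CPM, where few counts add to the error.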
